A study of Mus musculus with 2 samples.

Results

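Major urinary protein (Mup) genes were described here through 5 members of the family, Mup1, Mup3, Mup11, Mup17 and Mup20. They were 5 of the 22 Mup rows among the 32285 features counted in each library, and were found by their symbols in the feature list, which was the same in both libraries. They were chosen by earlier results on their UMI counts across the hepatocyte groups, the other cells and the 2 libraries, so their levels in the groups below are a description, and nothing is read from how many of them stand out. A barcode was used if it carried 500 or more unique molecular identifiers (UMIs, which count each captured transcript once) and 200 or more genes, with no more than 20% of its UMIs from mitochondrial genes.

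The GS-KO mouse was a tumour-bearing Glul f/f mouse that had received AAV8-Cre, and the control was a tumour-bearing Glul f/f mouse that had received AAV8-GFP; both were used 7 weeks after the virus. Glul encodes glutamine synthetase (GS), and the series title places the tumours among β-catenin-mutant hepatocellular carcinomas. AAV8 is a viral vector taken up mainly by hepatocytes, and Cre deletes the floxed part of the gene in the cells that it reaches, so other liver cells may keep it. The promoter that drives Cre and the ages and sexes of the mice are not given in the sources used here. There was 1 mouse and 1 library per group, so mouse, library and treatment cannot be told apart, no test between the groups was possible, and all intervals below are 95% intervals that cover counting error only. Cells came from the supernatant of a collagenase-perfused liver, were enriched with anti-F4/80 beads (F4/80 is a macrophage protein) and were cleared of dead cells. Hepatocytes are therefore the cells that this preparation left behind, and their share of cells says nothing of the liver.

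The GS-KO library held 1366 barcodes and 8805330 UMIs, of which 662 barcodes met the limits, and the control library held 5074 barcodes and 64770011 UMIs, of which 3275 met them. After 7 and 24 called doublets were removed, 655 GS-KO cells and 3251 control cells remained, with medians of 4104 and 7320 UMIs. The labels state at least 7500 cells, a number above the barcodes in the files used here. The libraries shared 1 barcode. Glul, the targeted gene, had 38 UMIs or 96.4 UMIs per 1000000 (CPM) in GS-KO hepatocyte-like cells, against 73910 UMIs or 3043 CPM in control hepatocyte-like cells. Whether the counted end of the transcript lies in the deleted part is not given in the sources used here. Xist, which is transcribed from the inactive X chromosome of females, had 0 UMIs in GS-KO hepatocyte-like cells and 1 in control ones. The Y-linked Ddx3y had 55.8 and 35.1 CPM, so both libraries carried the sex-linked pattern of male cells.

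Mup genes encode small secreted lipocalins, proteins with a barrel-shaped pocket that binds volatile ligands. In mice the liver makes them in large amounts and releases them into the blood, from which they pass into the urine and carry scent signals; Mup20 encodes darcin, a male protein pheromone that attracts females. Adult males make more than females, and the pulsed release of growth hormone in males drives many of the genes through the transcription factor STAT5b. The family stands as a tandem array in which many copies are nearly identical, which limits how well short reads can be given to a single copy.

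All 5 members are protein-coding genes on the minus strand of chromosome 4 in GENCODE M21 (GRCm38). Mup1 lies at chr4:60498012-60501960, Mup11 at chr4:60658466-60662411, Mup17 at chr4:61591929-61595871, Mup20 at chr4:62050234-62054158 and Mup3 at chr4:62083476-62087342. The 22 counted Mup genes spread over 2194 kb, and another 26 Mup pseudogenes annotated on the chromosome were not among the counted features. The longest annotated transcripts of the members are 927 to 984 bases long, so their UMIs were not scaled by length. Over these transcripts Mup1, Mup11 and Mup17 were 98.4% to 98.8% identical to each other, Mup20 was 89.5% to 89.9% identical to those 3, and Mup3 was 66.6% to 70.2% identical to the other 4. In the last 500 bases, where a 3′ kit counts, every 90-base window of Mup1 (411 of 411) also stood in the transcript of another Mup gene, as did 68.9% of the windows of Mup11, 34.8% of Mup17, 9.73% of Mup20 and 0 of 411 of Mup3. UMIs given to Mup1, Mup11 and Mup17 are therefore uncertain between copies. Those of Mup3 and most of those of Mup20 are not shared in this sense. How reads that fit several copies were counted was not examined, so Mup1, Mup11 and Mup17 may also be under-counted beside Mup3 and Mup20.

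The RefSeq promoter windows (GRCm38.p6, minus strand, 250 bases before to 50 bases after the annotated start) are shown for the 3 members that have one, because the results below turn on Mup3, set against a pair of near-identical copies. Capitals mark the letters TATATAA, which were picked after the sequences were seen.
Mup3, chr4:62087268-62087567: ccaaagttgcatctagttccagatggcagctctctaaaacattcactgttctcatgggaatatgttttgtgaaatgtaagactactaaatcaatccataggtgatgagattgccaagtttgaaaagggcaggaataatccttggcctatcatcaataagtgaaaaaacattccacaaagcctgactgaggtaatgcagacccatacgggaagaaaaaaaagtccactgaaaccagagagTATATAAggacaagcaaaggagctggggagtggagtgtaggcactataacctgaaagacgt
Mup11, chr4:60662346-60662645: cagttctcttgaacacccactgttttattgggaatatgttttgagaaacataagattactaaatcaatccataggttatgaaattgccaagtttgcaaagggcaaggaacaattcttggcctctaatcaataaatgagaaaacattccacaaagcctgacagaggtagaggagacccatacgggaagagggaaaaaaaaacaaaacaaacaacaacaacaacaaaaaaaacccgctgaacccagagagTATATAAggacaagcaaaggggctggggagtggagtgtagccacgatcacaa
Mup17, chr4:61595783-61596082: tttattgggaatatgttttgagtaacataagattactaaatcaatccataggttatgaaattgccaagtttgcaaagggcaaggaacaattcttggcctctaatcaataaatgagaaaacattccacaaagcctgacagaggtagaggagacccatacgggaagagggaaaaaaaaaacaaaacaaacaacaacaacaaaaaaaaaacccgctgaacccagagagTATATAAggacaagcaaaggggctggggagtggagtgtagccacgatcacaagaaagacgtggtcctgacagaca
The motif began 11 bases upstream of the annotated start in Mup3, 2 in Mup11 and 25 in Mup17. In a global alignment of the windows as annotated, Mup11 and Mup17 were 83.7% identical, and Mup3 was 67.3% identical to Mup11 and 59% to Mup17. The windows are offset against the motif, so these values also depend on where each start was annotated. On either strand, TATATAA stood in 3.24% of the 32851 promoter windows in the table and in 13 of its 14 Mup windows. TTCNNNGAA, the form to which STAT proteins bind, stood in 8.30% of all windows and in 0 of the 14 Mup windows on either strand, which says only that these letters are not in these windows.

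Cells of both libraries were clustered together with all 22 Mup rows left out, so that Mup levels did not define the clusters. Of 18 clusters, 3 were called hepatocyte-like from marker genes and held 30 GS-KO and 529 control cells. The first, called Serpina1c-led here, had 6 GS-KO and 69 control cells, passed all 20 hepatocyte markers and was led by Serpina1c and Serpina1a (protease inhibitors of the plasma), Pck1 (gluconeogenesis) and Cps1 and Ass1 (urea cycle), which are genes of periportal hepatocytes. The second, Cyp2e1-led, had 23 GS-KO and 356 control cells, passed 16 of the 20 markers and included Cyp2e1, a cytochrome P450 of pericentral hepatocytes, among its leading genes. Cyp2e1 itself had 2933 CPM in control Cyp2e1-led and 1624 CPM in control Serpina1c-led cells, and 1659 and 1568 CPM in GS-KO ones. The name is thus a label and not a zone shown by that gene. The third, the dividing group, had 1 GS-KO and 104 control cells, passed 8 markers and was led by mitosis genes such as Cdca3 and Ube2c. When the Mup rows were put back into the clustering, all 75 Serpina1c-led cells again fell together, as did 102 of 105 dividing cells, but only 289 of 379 Cyp2e1-led cells (76.3%), and the cluster that took 168 of 173 Igfbp1-led cells grew to 257 cells. A shallow cluster of 40 GS-KO and 133 control cells, led by Igfbp1 and passing 0 hepatocyte markers, stayed unnamed and is given beside the others. Of these groups, Serpina1c-led cells had median depths of 7513 UMIs in the GS-KO and 3156 in the control library, and Cyp2e1-led cells 6962 and 32864.

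Across the hepatocyte groups, the level of Mup UMIs per total UMI was highest in the Serpina1c-led cells of both libraries. The 5 members summed to 6642 CPM in GS-KO and 18148 CPM in control Serpina1c-led cells. In Cyp2e1-led cells the sums were 312 CPM in the GS-KO and 1406 CPM in the control library. The single GS-KO dividing cell had 1559 CPM, and the 104 control dividing cells had 1300 CPM. Unnamed Igfbp1-led cells had 390 CPM in the GS-KO and 665 CPM in the control library. Control Serpina1c-led cells thus had 12.9 times (12.6 to 13.2) the summed level of control Cyp2e1-led cells, and GS-KO Serpina1c-led cells 21.3 times (17.1 to 26.8) that of GS-KO Cyp2e1-led cells. Alb, the gene of serum albumin and a measure of hepatocyte secretory RNA at large, differed less, by 3.54 times in the GS-KO and 3.82 times in the control library. The background was 9267 genes with at least 50 UMIs in the control cells of both groups together. Of these, 7.06% were at least 2-fold higher in Serpina1c-led cells and 16.7% at least 2-fold lower. The 4 of the 5 members that passed this minimum were higher (Mup11 did not pass). Of 26 abundant secreted hepatocyte genes, 15 were also at least 2-fold higher and 2 lower, with a median log2 ratio of 1.24. Serpina1c, a leading gene of the group, had 7699 CPM in control Serpina1c-led and 111 CPM in control Cyp2e1-led cells, so a fold this large was not particular to the members.

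Mup3, whose counted end is shared with no other Mup transcript, separated the groups most. It had 305 UMIs or 5627 CPM in GS-KO and 7995 UMIs or 9753 CPM in control Serpina1c-led cells. In Cyp2e1-led cells it had 8 UMIs or 24.4 CPM in the GS-KO and 2330 UMIs or 137 CPM in the control library. The Serpina1c-led level was 230 times (115 to 538) the Cyp2e1-led one in the GS-KO and 71.1 times (67.9 to 74.5) in the control library. Every GS-KO and all but 1 of the 69 control Serpina1c-led cells carried a Mup3 UMI, against 2 of 23 GS-KO and 211 of 356 control Cyp2e1-led cells.

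Mup20, the darcin gene, was spread more evenly. It had 45 UMIs or 830 CPM in GS-KO and 3745 UMIs or 4568 CPM in control Serpina1c-led cells, and 89 UMIs or 272 CPM in GS-KO and 17134 UMIs or 1008 CPM in control Cyp2e1-led cells. The ratio of Serpina1c-led to Cyp2e1-led levels was 3.05 (2.08 to 4.42) in the GS-KO and 4.53 (4.37 to 4.69) in the control library. In GS-KO Serpina1c-led cells, 43 of the 45 UMIs came from 1 cell, and without it the level was 66.6 CPM.

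Mup1 and Mup17, near-identical copies whose counts may be exchanged, lay between. Mup1 had 5 UMIs or 92.2 CPM in GS-KO and 1254 UMIs or 1530 CPM in control Serpina1c-led cells, and 5 UMIs or 15.3 CPM in GS-KO and 3723 UMIs or 219 CPM in control Cyp2e1-led cells. Mup17 had 4 UMIs or 73.8 CPM in GS-KO and 1874 UMIs or 2286 CPM in control Serpina1c-led cells. In Cyp2e1-led cells Mup17 had 0 UMIs in the GS-KO library, which allows up to 9.16 CPM, and 702 UMIs or 41.3 CPM in the control library. A single control Serpina1c-led cell carried 1362 Mup17 UMIs, 72.7% of the group's total, and without it control Serpina1c-led cells had 686 CPM. Mup11 had 1 UMI in GS-KO and 18 UMIs in control hepatocyte-like cells, too few to order the groups.

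**Figure D1:**
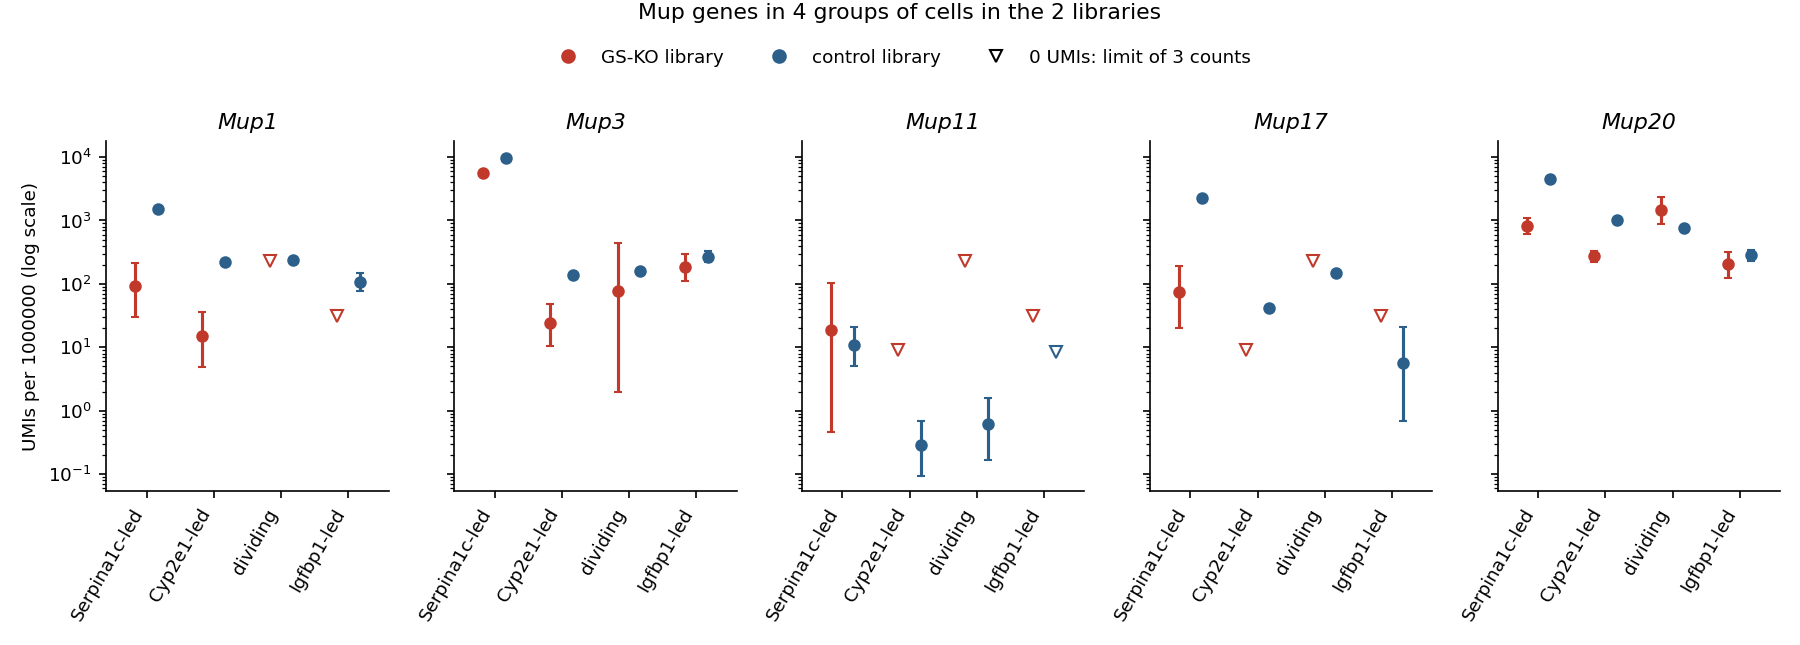
Level of each member (UMIs per 1000000, log scale) in 4 groups of cells, with GS-KO in red left of control in blue and bars for the exact 95% Poisson interval; open triangles mark the limit of 3 counts where no UMI was found. Mup3 is at 5627 CPM in GS-KO and 9753 CPM in control Serpina1c-led cells, against 24.4 and 137 CPM in Cyp2e1-led cells, while Mup20 differs far less between the same groups.

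Cell by cell, the members' levels were spread widely within both the Serpina1c-led and the Cyp2e1-led group. The 6 GS-KO Serpina1c-led cells had 3453 to 8259 CPM of the members, and the 69 control ones had 0 to 105510 CPM with a median of 13558 CPM. Of those control cells, 52 stood above the highest GS-KO cell and 3 below the lowest, so the ranges overlapped. GS-KO Cyp2e1-led cells had 0 to 2148 CPM with 12 of 23 cells at 0 UMIs, and control ones had 0 to 32132 CPM, a median of 268 CPM and 52 of 356 cells at 0 UMIs. The tenth of control Cyp2e1-led cells with most member UMIs held 76.5% of the UMIs, and that of control Serpina1c-led cells 60.7%; for Mup20 alone the shares were 84.5% in Cyp2e1-led and 87.3% in Serpina1c-led cells. A level of 1000 CPM was reached by 2 of 23 GS-KO and 103 of 356 control Cyp2e1-led cells. After every cell was thinned to 1000 UMIs, a member UMI was found in 6 of 6 GS-KO and 54 of 55 control Serpina1c-led cells, and in 5 of 23 GS-KO (21.7%) and 142 of 356 control (39.9%) Cyp2e1-led cells; the 14 control Serpina1c-led cells under that depth were left out. Unthinned, the Cyp2e1-led shares were 47.8% in the GS-KO and 85.4% in the control library.

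**Figure D2:**
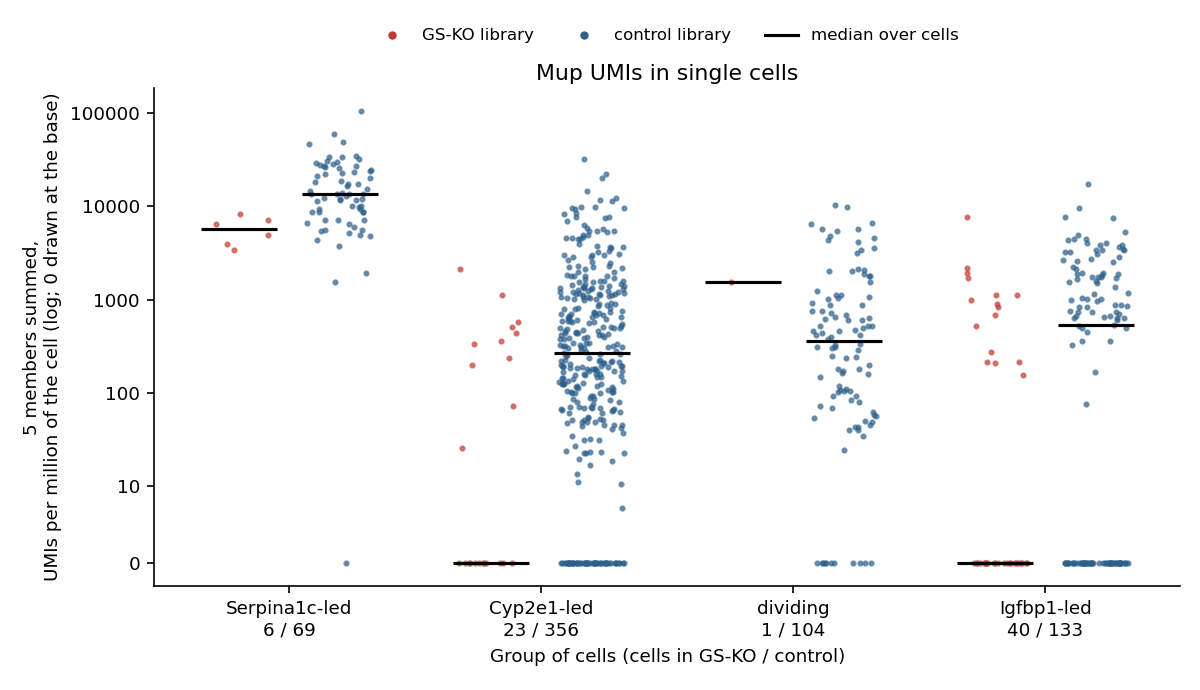
UMIs per 1000000 of the 5 members summed in each cell (log scale, cells without a member UMI drawn at the base), with GS-KO cells in red left of control cells in blue and a black line at the median over cells. The 6 GS-KO Serpina1c-led cells lie between 3453 and 8259 CPM, and control Cyp2e1-led cells reach from 0 to 32132 CPM.

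The members also made up their summed UMIs in different shares. These shares compare counted UMIs only, since Mup1, Mup11 and Mup17 may be under-counted beside Mup3 and Mup20. In control Serpina1c-led cells Mup3 gave 53.7% of the members' UMIs, Mup20 25.2%, Mup17 12.6% and Mup1 8.43%. In control Cyp2e1-led cells Mup20 gave 71.7%, Mup1 15.6%, Mup3 9.75% and Mup17 2.94%, and in control dividing cells the order was the same, with 57.9%, 18.5%, 12.2% and 11.4%. Among cells with at least 10 member UMIs, Mup3 was the leading member in 44 of 54 control Serpina1c-led cells. Mup20 led in 108 of 163 control Cyp2e1-led cells and 37 of 49 control dividing cells, and Mup1 led in 37 and 5 of them. The GS-KO library kept this order of groups: Mup3 gave 84.7% (80.6 to 88.3) of the members' UMIs in Serpina1c-led cells and 7.84% (3.45 to 14.9) in Cyp2e1-led cells, where Mup20 gave 87.3%. Per cell, the 4 GS-KO Serpina1c-led cells with at least 10 member UMIs had Mup3 shares of 72.3% to 98.9%, 3 of them above 90%, and the 54 control ones had 14.3% to 95.7%, with a median of 70.3% and 3 above 90%.

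**Figure D3:**
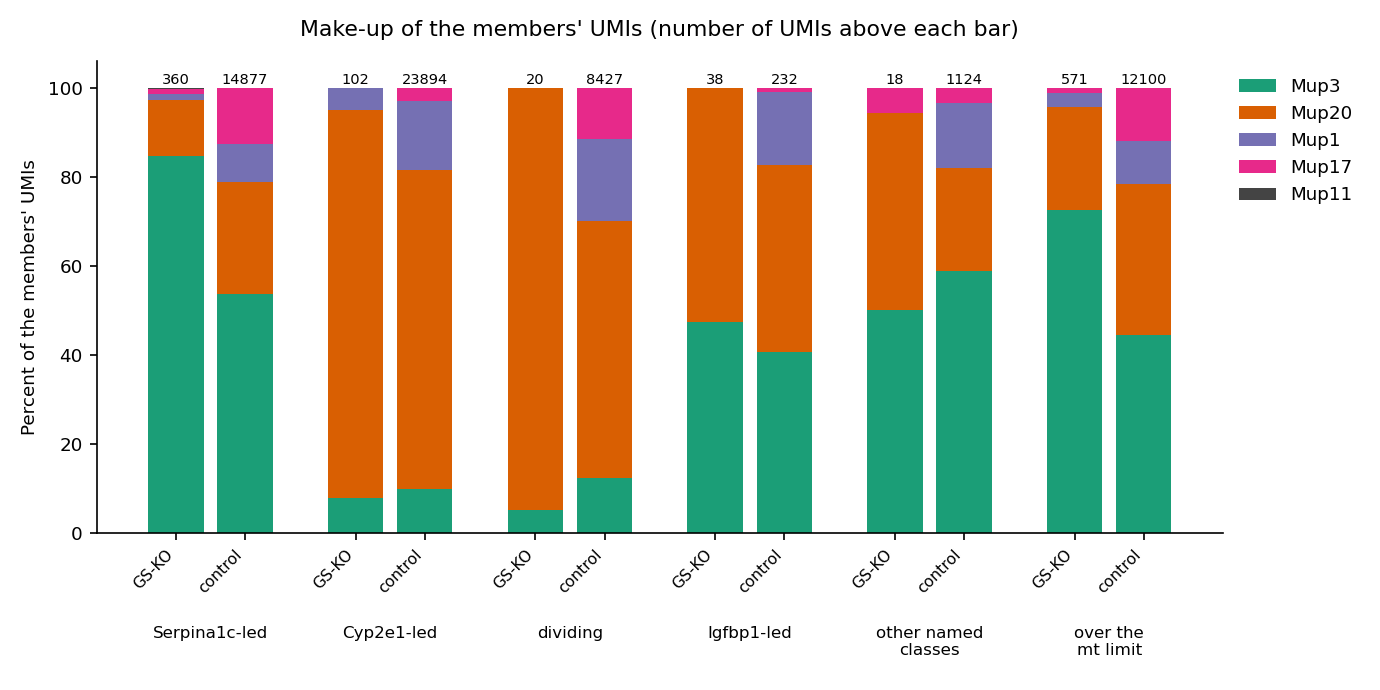
Share of each member in the members' UMIs (percent, stacked to 100), with GS-KO left of control in each group of cells, the barcodes over the mitochondrial (mt) limit at the right and the number of UMIs above each bar. Mup3 is the largest part in Serpina1c-led cells of both libraries and Mup20 in Cyp2e1-led and dividing cells.

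Within a group, members did not vary as one block. Over the 347 control Cyp2e1-led cells of at least 2000 UMIs, on the log scale of UMIs per 10000, Mup1 went with Mup17 at a Pearson r of 0.60 and with Mup3 at 0.55, and Mup3 went with Mup20 at 0.50, while Mup20 had an r of 0.19 with Mup1 and 0.05 with Mup17. In the 97 control dividing cells the pairs Mup1 and Mup3 (0.67), Mup1 and Mup17 (0.63) and Mup3 and Mup20 (0.55) were again above Mup17 and Mup20 (0.13). In the 41 control Serpina1c-led cells Mup1 and Mup3 had an r of 0.75 and Mup17 and Mup20 one of -0.14, while Mup3 and Mup20 had only 0.15, unlike in the other groups. All these cells share a library and differ in depth, and UMIs of Mup1 and Mup17 may be exchanged between copies, so the values are descriptions.

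The genes whose level went most with the members' sum were named over 485 control hepatocyte-like cells and 7016 genes, Mup rows left out. They were Serpina1c (r = 0.68), Wfdc21 (0.63), Serpina1a (0.60), Serpina3k (0.59), Apoc3 (0.59), Ass1 (0.58), Gnmt (0.58) and Serpina1b (0.57). Most are genes of secreted plasma proteins (Serpina1a, Serpina1b, Serpina1c and Serpina3k are protease inhibitors and Apoc3 an apolipoprotein), and Gnmt is an enzyme of methionine metabolism. The lowest were Cyp2a5 (-0.56), Ugdh (-0.56), Aldh1a1 (-0.53), Cyp1a2 (-0.51) and Maoa (-0.50). The difference between clusters enters these values: within the 347 Cyp2e1-led cells alone the r was 0.47 for Apoc3, 0.44 for Serpina3k, 0.43 for Serpina1c and -0.22 for Cyp2a5. Within the 41 Serpina1c-led cells it was 0.62 for Apoc3, 0.62 for Serpina3k and 0.53 for Serpina1c but 0.19 for Ass1, and of the low genes Ugdh kept a clearly negative value (-0.55), with 0.15 for Cyp2a5, 0.14 for Cyp1a2, 0.02 for Maoa and -0.08 for Aldh1a1.

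Other gene groups that separated control Serpina1c-led from control Cyp2e1-led cells are given as background to these levels; a group called by its own genes cannot be tested on them. Of the 17 periportal genes counted, 16 were at least 2-fold higher in Serpina1c-led cells, with a median log2 ratio of 4.88, against -0.18 over all 9267 genes. Of the 24 pericentral and Wnt target genes, 19 were at least 2-fold lower, with a median of -2.23. Glul itself had 121 CPM in control Serpina1c-led and 3362 CPM in control Cyp2e1-led cells. Of the fetal and tumour genes, 4 of 4 were at least 2-fold lower, among them Afp (alpha-fetoprotein) with 7.32 CPM in control Serpina1c-led and 350 CPM in control Cyp2e1-led cells. Afp had 450 CPM in control dividing cells. Whether Cyp2e1-led or dividing cells included tumour cells was not tested. Of 14 male-biased liver genes 7 were at least 2-fold higher and 3 lower, and of 12 growth hormone axis genes 5 were higher and 2 lower, Igf1 (the circulating growth factor) with 861 CPM in Serpina1c-led and 78.8 CPM in Cyp2e1-led cells. Of 11 cell cycle genes 10 were at least 2-fold higher in Serpina1c-led cells, but 1 deep cell carried this: the list summed to 686 CPM with it and 44.2 CPM without it. Within control Cyp2e1-led cells thinned to 1000 UMIs, the 72 cells without a Glul UMI had a mean of 2.83 member UMIs and the 284 with one had 1.11. The same split gave 0.947 without and 1.14 with a Glul UMI in control dividing cells, 0.947 and 1.34 in control Igfbp1-led cells, and 19.1 and 14.8 in control Serpina1c-led cells, where only 6 cells had one.

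Between the libraries, Mup levels were lower in the GS-KO mouse in Serpina1c-led and Cyp2e1-led cells, while the single GS-KO dividing cell, at 1559 CPM, stood above the 1300 CPM of the control dividing cells. Summed over hepatocyte-like cells the members had 482 UMIs or 1222 CPM (1115 to 1336) in the GS-KO and 47198 UMIs or 1943 CPM (1926 to 1961) in the control library, a GS-KO over control ratio of 0.629 (0.574 to 0.688). Within Serpina1c-led cells the ratio was 0.366 (0.329 to 0.406), or 2.73-fold lower in GS-KO, and within Cyp2e1-led cells 0.222 (0.181 to 0.269), or 4.51-fold lower. The pooled ratio was nearer to 1 than that of either group, and the groups were mixed differently. Serpina1c-led cells gave 6 of 30 hepatocyte-like cells and 66.8% of all member UMIs in the GS-KO library, and 69 of 529 cells and 30.6% of all member UMIs in the control library, where Cyp2e1-led cells gave 49.1%. Alb was closer to equal, with 30996 CPM in GS-KO and 29941 CPM in control Serpina1c-led cells (ratio 1.04, 0.985 to 1.09) and 8755 and 7838 CPM in Cyp2e1-led cells (1.12, 1.08 to 1.16). Per 100 Alb UMIs there were 21.4 member UMIs in GS-KO and 60.6 in control Serpina1c-led cells, and 3.56 in GS-KO and 17.9 in control Cyp2e1-led cells.

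Member by member the differences were unequal. In Serpina1c-led cells the GS-KO over control ratio was 0.577 (0.513 to 0.647) for Mup3, 0.182 (0.132 to 0.244) for Mup20, 0.0603 (0.0195 to 0.141) for Mup1 and 0.0323 (0.00879 to 0.0828) for Mup17. In Cyp2e1-led cells it was 0.270 (0.216 to 0.332) for Mup20, 0.178 (0.0768 to 0.352) for Mup3 and 0.0697 (0.0226 to 0.163) for Mup1, and Mup17 was at least 4.51-fold lower, taking 3 counts over the GS-KO cells as the floor. Mup3 pooled over hepatocyte-like cells stood the other way, with 796 CPM in GS-KO and 467 CPM in control cells (ratio 1.70, 1.52 to 1.91), although it was lower in GS-KO within each group. Of genes with at least 50 UMIs, 14.1% were at least 2-fold lower in GS-KO Serpina1c-led cells (276 of 1959, with 208 higher), and 3 of the 4 members counted there were lower. In GS-KO Cyp2e1-led cells 17.9% were lower (1641 of 9177, with 826 higher), and 4 of 4 members were lower, a count that did not hold for Mup3 and Mup20 in cells of matched depth, given below. Without the cell richest in Mup20 in each library, Mup20 stood at 66.6 CPM in GS-KO and 3584 CPM in control Serpina1c-led cells. In the same cells Mup1 had 166 and 1509 CPM, so Mup20 was then further below the control level than Mup1. Without the control cell richest in Mup17, Mup17 stood at 73.8 CPM in GS-KO and 686 CPM in control Serpina1c-led cells. All 4 GS-KO Mup17 UMIs came from 1 cell of 1837 UMIs, so the GS-KO level rests on that cell. Over all hepatocyte-like cells 19.8% of genes with at least 50 UMIs were at least 2-fold lower in GS-KO, as were 3 of 4 members.

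**Figure D4:**
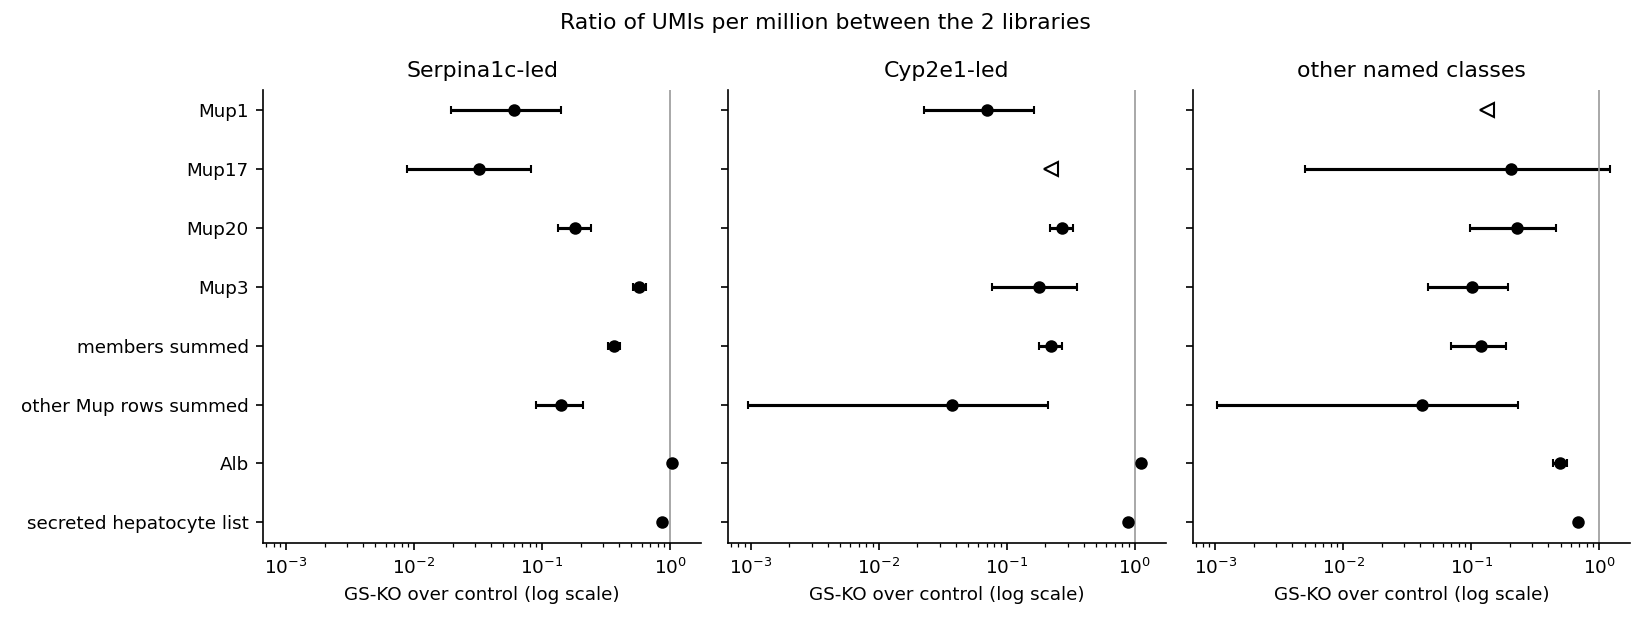
GS-KO over control ratio of UMIs per 1000000 (log scale, grey line at 1) for the members, the other Mup rows, Alb and the list of secreted hepatocyte genes, with the exact 95% interval for counting error; open triangles mark upper limits where GS-KO had 0 UMIs. Alb lies at 1.04 and 1.12 in the hepatocyte groups, while the members' sums lie at 0.366 and 0.222.

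These library differences rest on 6 and 23 GS-KO cells of 1 mouse, and depth differed with the library. In Cyp2e1-led cells of 5000 to 20000 UMIs, a range chosen after the data were seen, 11 GS-KO cells had 396 CPM of the members and 92 control cells had 691 CPM, a ratio of 0.573 (0.416 to 0.773) in place of 0.222. There Mup3 had 68.9 CPM in GS-KO and 99.3 CPM in control cells and Mup20 had 301 and 400.1 CPM, both less than 2-fold lower, while Mup1 had 25.8 and 123 CPM. In Serpina1c-led cells of the same depth the ratio was 0.349 (0.298 to 0.406). Its GS-KO side was only the cells of 11261 and 11914 UMIs, too few to show how cells vary. The cell with most member UMIs carried 46.1% of them in GS-KO Cyp2e1-led cells, whose level was 224 CPM without it, and 12.8% in control ones, whose level was 1236 CPM without it.

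The 17 other Mup rows were measured beside the members. In hepatocyte-like cells 5 of them had a UMI in the GS-KO and 15 in the control library, summing to 26 UMIs or 65.9 CPM and 5043 UMIs or 208 CPM. The members held 94.9% of all Mup UMIs in GS-KO and 90.3% in control hepatocyte-like cells. In control Serpina1c-led cells the other rows with most UMIs were Mup9 with 1196 UMIs, Mup21 with 636, Mup7 with 412 and Mup16 with 329. Of these, 71.4% of the Mup9 UMIs and 71.1% of the Mup16 UMIs came from 1 cell each, while the highest cell held 12.7% of Mup21 and 13.8% of Mup7. Summed, the other rows had 461 CPM in GS-KO and 3291 CPM in control Serpina1c-led cells (ratio 0.140, 0.0905 to 0.207), and 3.05 CPM from 1 UMI in GS-KO and 81.3 CPM in control Cyp2e1-led cells.

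Genes linked to sex or to growth hormone were counted in the same library contrast. Of 11 male-biased liver genes with at least 50 UMIs in Serpina1c-led cells, 6 were at least 2-fold lower in GS-KO and 0 higher; their median log2 ratio was -1.06 against 0.09 over all 1959 genes. In Cyp2e1-led cells 4 of 13 were lower and 2 higher, with a median of -0.61 against -0.02. Over all hepatocyte-like cells 4 of 15 were lower and 1 higher, with a median of -0.29 against -0.07. Of the female-biased liver genes, 1 of 5 was higher and 0 lower in Cyp2e1-led cells, with a median of 0.33, and 3 of 6 were higher and 0 lower over all hepatocyte-like cells, with a median of 0.97 against -0.07. Of the growth hormone axis genes, 3 of 5 were lower and 0 higher in Serpina1c-led cells, and 6 of 12 were lower and 2 higher in Cyp2e1-led cells. Over all hepatocyte-like cells the count went the other way, with 6 of 13 of these genes higher and 3 lower, at a median of -0.20. Serpina3k, a protease inhibitor gene of that list, had 1679 CPM in GS-KO and 3399 CPM in control Serpina1c-led cells, Ghr (the growth hormone receptor) 148 and 314 CPM, and Igf1 1236 and 861 CPM. Of the liver transcription factor genes, 1 of 6 was lower and 1 higher in Serpina1c-led cells, and 3 of 19 lower and 1 higher in Cyp2e1-led cells. Of 10 other lipocalin genes, Orm1 (an acute-phase protein) had 941 CPM in GS-KO and 1309 CPM in control Serpina1c-led cells, and Rbp4 (retinol transport) 6531 and 6187 CPM, with 0 of the 4 counted past 2-fold. In Cyp2e1-led cells 2 of 7 were lower and 1 higher, and Orm1 had 48.9 CPM in GS-KO and 355 CPM in control cells. Of 26 secreted hepatocyte genes counted in Serpina1c-led cells, 4 were at least 2-fold lower and 0 higher.

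Cells of the other named classes carried low levels of Mup UMIs. In the 543 GS-KO cells of the other named classes 18 member UMIs were found, 5.02 CPM (2.97 to 7.93), and in the 2238 control cells 1124 UMIs, 42.4 CPM (39.9 to 44.9). The control level was 2.18% of that of control hepatocyte-like cells. The GS-KO over control ratio was 0.118 (0.0699 to 0.188), below the 0.497 (0.437 to 0.563) of Alb in the same cells. Hepatocyte-like cells gave 8.78% of the kept cells' UMIs in the GS-KO library and 45.1% in the control library. The part of this difference in the ratio was not tested. Among 11571 genes with at least 50 UMIs in these classes, 7.87% were at least 2-fold lower in GS-KO, as were 3 of 3 members counted. Of 25 abundant secreted hepatocyte genes, 17 were also at least 2-fold lower and 1 higher. Their median log2 ratio was -1.21, against -0.02 over all genes, so lower counts in these cells were not particular to the members. After thinning to 1000 UMIs, 2 of 512 GS-KO cells (0.391%) and 121 of 2201 control cells (5.50%) had a member UMI, and unthinned shares were 3.13% and 33.1%, at median depths of 4318 and 8253 UMIs.

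By class, the control level was 183 CPM in neutrophil-like, 111 in endothelial-like, 75.7 in B-like, 54.4 in NK and ILC-like, 47.4 in T-like, 38.1 in monocyte-like, 34.4 in macrophage-like and 34.4 CPM in Kupffer-like cells. Neutrophil-like over endothelial-like cells stood at a ratio of 1.65 (1.13 to 2.37) and endothelial-like over B-like cells at 1.47 (1.11 to 1.93), beyond counting error. For each of the other 5 pairs of neighbours the interval of the ratio held 1, so their order is not beyond counting error. Depth differed between these classes, with control medians from 2371 UMIs in neutrophil-like to 20111 UMIs in macrophage-like cells. The 99 control neutrophil-like cells held 47 member UMIs, and the 564 control macrophage-like cells held 397. Per cell, macrophage-like cells thus held more member UMIs than neutrophil-like ones, unlike in CPM. The part of depth in the order of classes was not tested. A platelet-like class of 12 GS-KO cells and 1 control cell held 0 UMIs and 1 UMI. In the GS-KO library the same classes had 0 to 5 UMIs each, at most 10.3 CPM in Kupffer-like cells, with 0 UMIs in neutrophil-like, monocyte-like and NK and ILC-like cells. The Mup3 share of member UMIs in these 8 control classes ran from 48.9% in neutrophil-like to 65.7% in B-like cells, and was 58.9% (56.0 to 61.8) over all named classes. That share was above the 24.1% (23.7 to 24.4) of control hepatocyte-like cells as a whole and nearer to the 53.7% of control Serpina1c-led cells. With each hepatocyte-like cell thinned to 1000 UMIs, so that deep cells weigh no more than others, their share was 44.7%. Free RNA in the droplets is a usual source of such UMIs, and its part in these levels was not tested.

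**Figure D5:**
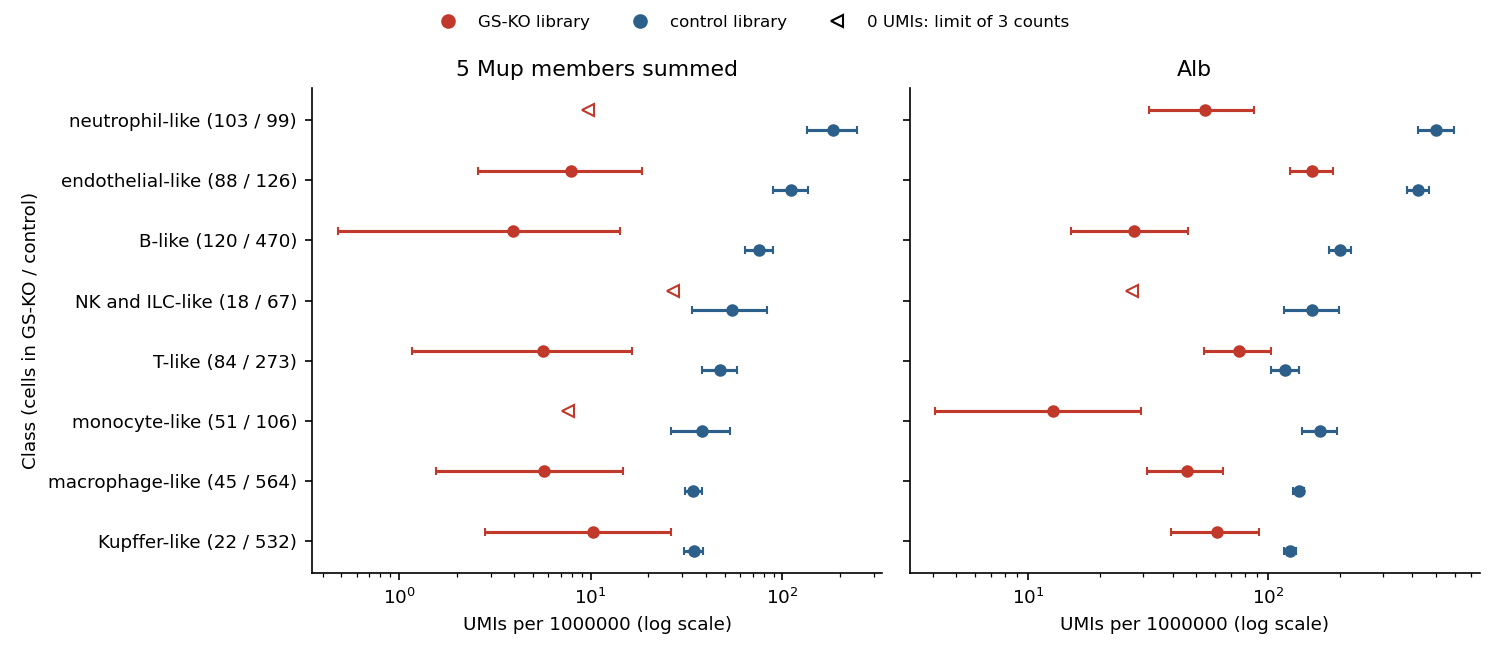
UMIs per 1000000 (log scale) of the 5 members summed and of Alb in 8 classes of cells other than hepatocytes, with GS-KO in red above control in blue, bars for the exact 95% Poisson interval and open triangles for the limit of 3 counts at 0 UMIs. Control members lie between 34.4 and 183 CPM, and GS-KO members at 10.3 CPM or lower where a UMI was found.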

How the data were processed

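The authors deposited 1 matrix of raw UMI counts per library; per the submitters' processing notes they were made with Cell Ranger and the mm10 genome, and per the file headers with software version 3.1.0. No barcode had under 500 UMIs. The labels name a 3′ kit, and in 1 place a single-nucleus assay; which applies was not settled.

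Barcodes with at least 500 UMIs, 200 genes and at most 20% mitochondrial UMIs were kept, and Scrublet doublets (expected rate 5%) removed. Without the Mup rows, cells were scaled to 10000 UMIs, log-transformed, and clustered on 2000 variable genes (values capped at 10), 30 components, 15 neighbours and Leiden resolution 1, with scanpy 1.11.5, scikit-learn 1.9.0 and igraph 0.11.9. A marker counted at 2-fold over all other cells with 10 CPM added and in 20% of the cluster's cells. Levels are counts summed per group and library, per 1000000, with exact Poisson, Clopper-Pearson or conditional binomial 95% intervals. A count of 0 was given the limit of 3 counts. With 1 library per group there was no test.

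The members, markers and gene lists were chosen with earlier results of these data known. Genes were named by rule: all Mup rows, Glul, sex-linked genes, up to 4 per list with most UMIs in hepatocyte-like cells, and the 8 highest and 5 lowest correlations. The remark on the cell cycle list and cells of 5000 to 20000 UMIs was added after the data were seen. Scripts were tested on simulated data. edgeR 4.0.16 gave TMM factors for 1 alternative.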

Additional observations from a re-analysis of the deposited data

Results flagged for a closer look

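Barcodes over the mitochondrial limit, which the levels above leave out, also carried Mup UMIs. Among barcodes with at least 500 UMIs and 200 genes, 314 GS-KO barcodes over the limit held 571 member UMIs, or 1577 CPM (1450 to 1712) of their UMIs outside mitochondrial genes. The 848 control barcodes over the limit held 12100 member UMIs, or 3790 CPM (3723 to 3858). Mup3 gave 72.5% of these UMIs in the GS-KO and 44.4% in the control library, and Mup20 gave 23.1% and 33.9%. Per 1000 UMIs of the secreted hepatocyte genes there were 18.8 member UMIs in the GS-KO and 47.5 in the control library. Barcodes over the limit were 50.8% of all GS-KO and 35.5% of all control barcodes.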

How the results depend on the processing

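No paired analysis was possible because each group had 1 library. The leading member of control hepatocyte-like cells depended on how cells were weighted: Mup20 led in summed UMIs (54.6%, Mup3 24.1%), but Mup3 led in thinned cells (1444 against 1154 CPM) and as a mean over cells (1561 against 1113 CPM). The GS-KO over control ratio of the members in hepatocyte-like cells, 0.629, was 0.550 with doublets kept, 0.757 and 0.525 with mitochondrial limits of 10% and 50%, 0.548 with the Mup rows in the clustering, 0.549 at Leiden resolution 0.5, 0.392 in cells thinned to 1000 UMIs, 0.399 as a mean over cells and 0.549 with Igfbp1-led cells counted. It was 0.366 in Serpina1c-led and 0.222 in Cyp2e1-led cells alone, and 0.349 and 0.573 in those of 5000 to 20000 UMIs. The highest over the lowest control hepatocyte cluster, 13.96, became in the same first 5 settings 16.2, 16.04, 12.2, 19.9 and 13.3. It was 61.7 at resolution 2, 16.8 thinned, 15.6 as a mean over cells, 14.6 without mitochondrial genes in the total, 27.3 with Igfbp1-led cells, 13.1 without the cell richest in Mup17 and 14.7 without that richest in members. The level in other control cells, 2.18% of that in hepatocyte-like cells, was 2.49% at the 50% limit, 2.01% thinned, 0.234% and 3.01% against Serpina1c-led and Cyp2e1-led cells, and 2.32% without the cell richest in members. The Mup3 share in control hepatocyte-like cells, 24.1%, was 26.3% at the 50% limit, 44.7% thinned, 44.8% as a mean over cells, 53.7% and 9.75% in Serpina1c-led and Cyp2e1-led cells, 58.5% and 14.4% in those of 5000 to 20000 UMIs, and 25.5% without the cell richest in members. Genes past 2-fold between libraries numbered 2837 (852 of them higher), 269 thinned, 8686 (17.7% higher) with no minimum, 1353 at 200 UMIs and 484 (43.0% higher) in Serpina1c-led cells. The depth range, the single hepatocyte groups, the Igfbp1-led setting and those that leave out a cell were chosen after seeing the data. The causes of these moves were not tested. Depth limits Mup11, Mup17 in GS-KO cells and every GS-KO class outside hepatocytes.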
